A study of Mus musculus with 6 samples.

Results

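MicroRNA genes were examined in RNA-seq data of freshly isolated mouse muscle stem cells (MuSCs). The deposited table of 22706 genes held 472 genes of biotype miRNA, and the 160 with a mean of at least 5 normalized counts over the 6 libraries were taken as members. Of these, 136 carry a Mir name. The other 312 microRNA genes lay under that mean, and 15 of them were at 0 in all libraries. Mir190, Mir1191 and Mir7655 lay just outside the limit at a mean of 4.83, and Mir574, Mir451 and Mir1955 just inside it at 5.

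MuSCs of 3 groups with 2 libraries each were compared: wild type mice (Control), mdx mice, which carry a point mutation in the dystrophin gene and model Duchenne muscular dystrophy, and Sirt6mKO/mdx mice, in which the mdx mutation is combined with a Cre driven by Pax7 that deletes part of Sirt6, a histone deacetylase, in the muscle lineage. The labels give C57BL/6 as the strain of all groups and give no age. The cells were sorted from limb and trunk muscle by surface markers or by a Pax7 reporter, and the study counts the 2 libraries of a group as biological replicates. The labels give no sequencing batch.

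MicroRNAs are short RNAs that guide Argonaute proteins to messenger RNAs and thereby lower their translation or stability. A microRNA gene is first copied into a long primary transcript, from which Drosha and DGCR8 cut a hairpin in the nucleus and Dicer cuts the mature strand in the cytoplasm. Many microRNA genes lie in introns or exons of other genes or in clusters that share 1 primary transcript. In muscle, miR-1, miR-133 and miR-206 are known as microRNAs of differentiating and mature fibres, whereas miR-31, miR-489, miR-195 and miR-708 are known from quiescent MuSCs. The libraries were made from total RNA and counted per gene, so reads at a microRNA gene of 56 to 131 bases may come from the primary transcript, the hairpin or the mature RNA, and these cannot be told apart. Nor can fewer cells that express a gene and less RNA per cell be told apart.

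A microRNA finds its targets mainly by its seed, the bases 2 to 8 of the mature strand, printed here in capitals. Mature sequences were read from RefSeq (GRCm38.p6), which held 227 for 128 of 155 members looked up. The first set shows microRNAs whose genes had higher values in libraries labelled Sirt6mKO/mdx than in mdx libraries. All of these genes except Mir27b also had both mdx libraries below both Control libraries. Within the set, miR-29a and miR-29b share a seed, as do miR-27a and miR-27b, and miR-221 and miR-222.
mmu-miR-29a-3p: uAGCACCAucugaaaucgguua
mmu-miR-29b-3p: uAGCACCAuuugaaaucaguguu
mmu-miR-27a-3p: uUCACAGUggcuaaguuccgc
mmu-miR-27b-3p: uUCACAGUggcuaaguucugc
mmu-miR-23a-3p: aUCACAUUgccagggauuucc
mmu-miR-221-3p: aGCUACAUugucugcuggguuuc
mmu-miR-222-3p: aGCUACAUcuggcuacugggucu
mmu-miR-30a-5p: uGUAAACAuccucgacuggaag
mmu-miR-1938: cGGUGGGAcuuguaguucgguc

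The second set shows the microRNAs of the Dlk1-Dio3 region whose genes were lower in mdx than in Control libraries. Their seeds differ from one another, although miR-300 and miR-381 are alike over much of their length.
mmu-miR-494-3p: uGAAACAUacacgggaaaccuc
mmu-miR-495-3p: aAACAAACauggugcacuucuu
mmu-miR-381-3p: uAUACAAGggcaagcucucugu
mmu-miR-300-3p: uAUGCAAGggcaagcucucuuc
mmu-miR-323-3p: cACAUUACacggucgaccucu
mmu-miR-1193-3p: uAGGUCACccguuuuacuauc
mmu-miR-654-3p: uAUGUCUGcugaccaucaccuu
mmu-miR-758-3p: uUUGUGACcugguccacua

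The third set shows microRNAs whose genes had higher values in the Sirt6mKO/mdx libraries than in Control, most of them in mdx libraries too. It ends with miR-206, a muscle microRNA, and let-7b, whose seed is shared by 7 members of the let-7 family.
mmu-miR-31-5p: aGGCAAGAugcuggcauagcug
mmu-miR-483-5p: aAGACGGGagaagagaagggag
mmu-miR-340-5p: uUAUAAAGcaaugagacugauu
mmu-miR-5108: gUAGAGCAcuggaugguuu
mmu-miR-6236: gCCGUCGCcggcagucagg
mmu-miR-6239: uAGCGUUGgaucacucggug
mmu-miR-206-3p: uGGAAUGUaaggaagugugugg
mmu-let-7b-5p: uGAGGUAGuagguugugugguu

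The libraries held about 4397443 to 9743972 reads, and 1 read was worth between 0.655 and 1.86 normalized counts. The 9 markers of MuSCs summed to between 16341 and 22378 per library. Of these, 2 were called lower in mdx than in Control and in the third group than in Control, Sdc4 (-2.69 and -1.31) and Chrdl2 (-2.36 and -1.56), and Sdc4 was called higher in the third group than in mdx. The 9 myofibre markers summed to 8131 and 9606 (Control), 5946 and 2192 (mdx) and 11545 and 5659 (Sirt6mKO/mdx), and the endothelial markers to 910 and 801, 426 and 422, and 621 and 637. Compared with Control, 4 of 9 myofibre and 2 of 5 endothelial markers tested were called lower in mdx. All 9 myofibre markers had positive differences in the third group against mdx, with a median of 1.02, and 3 were called higher (Acta1, Myh1 and Myh2). Erythroid markers summed to 56 and 19 (Control), 7 and 14 (mdx) and 39 and 91 (Sirt6mKO/mdx) and leukocyte markers to 106 and 131, 104 and 86, and 187 and 175, both lowest in mdx and, for the leukocyte markers, highest in the third group. Of these markers, Hbb-bs was called higher in the third group than in mdx, Cd68 lower and Lyz2 higher in mdx than in Control, and Lyz2 higher in the third group than in Control. Fibro-adipogenic markers summed to between 4404 and 9428, with Ly6a called higher in mdx than in Control and Col15a1 lower in the third group than in both others, and Schwann cell markers to between 124 and 235. Xist was at 16772 and 12950 in Control and at 7 to 34 elsewhere, and the Y-linked Ddx3y was at 3 and 8 in Control and at 1024 to 1767 elsewhere, so sex-linked markers separated Control from both other groups. Sirt6 was at 41 and 32 (Control), 33 and 40 (mdx) and 37 and 30 (Sirt6mKO/mdx). These whole-gene values include exons outside the deleted part and do not check the deletion. The libraries labelled Sirt6mKO/mdx are therefore named by that label, or as the third group, and the label was not checked by these data. The part of these differences in the results below was not tested. In comparisons with Control, the difference in sex-linked markers and that in genotype cannot be told apart. The study states that its experiments with these groups used male mice.

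Most members were low. The median of the member means was 12.7 normalized counts, 64 members had a mean under 10, 46 were at 0 in at least 1 library, and 21 had a mean of 50 or more. By far the highest member was Mir6236 (chr9:110281287-110281409), at 3094 and 904 (Control), 13782 and 18830 (mdx) and 75090 and 25266 (Sirt6mKO/mdx). It alone held between 0.0162% and 0.780% of all normalized counts of a library. Gm23935, the second highest, was at 8894 and 2334, 1574 and 1613, and 7696 and 2709 in the same order. Its sequence has near-identical copies in 4 other members (Gm24187, Gm24245, Gm24270 and Gm25911, 94.7% to 100% identity between members), so the values of all 5 are uncertain. Mir340, Mirlet7b, Mir27b, Mir6239, Mir23b and Mir3074-1 followed. Without Mir6236 and Gm23935, the members summed to 4331 and 3704 (Control), 2975 and 2329 (mdx) and 5354 and 6831 (Sirt6mKO/mdx), so that both mdx sums were the lowest and both sums of the third group the highest on this scale. As a share of all normalized counts of a library, the sums were 0.0652% and 0.0666%, 0.0466% and 0.0415%, and 0.0556% and 0.0769%, where the mdx libraries were again the lowest but the third group overlapped Control. The median member was at 12 in either Control library, 7 and 8 in mdx, and 12 and 20 in the third group.

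A gene was called when its adjusted p (limma with Benjamini-Hochberg adjustment over all 15915 tested genes) was at most 0.05 and its difference of mean log2(value + 1) at least 1 in size. In mdx against Control, 6 members (3.75%) were called higher and 16 (10%) lower, against 6.89% and 7.34% of all tested genes. The median difference was -0.66 for the members and 0.00 for all tested genes. Both mdx libraries lay below both Control libraries for 68 members (42.5%), against 28.3% of all tested genes. The region between Dlk1 and Dio3, described below, gave 31 of the 68. Among the 120 other members it was 37 (30.8%), with a median difference of -0.09. In Sirt6mKO/mdx against mdx, 13 members (8.13%) were called higher, against 5.62%, and 0 lower by limma, against 2.54%. At an unadjusted p under 0.05, 39 members were higher (24.4%, against 14.1% of all tested genes) and 2 lower (1.25%, against 11.1%) in that comparison. The median difference was 1.18 for the members and 0.02 for all tested genes. In 82 members, both libraries of the third group lay above both mdx libraries, and 28.8% of all tested genes did so. Compared with Control, the third group had 16 members (10%) called higher, against 5.19%, and 2 (1.25%) called lower, against 2.68%, with a member median of 0.44. Some called members had a mean under 5 in the lower group and so reached the limit of 5 only through groups in which they were high, which by itself favours a difference. These were 3 of the 6 called higher and 3 of the 16 called lower in mdx (Mir31, Mir5108 and Mir5112, and Gm25927, Mir302b and Mir495), 3 of the 13 in the third group against mdx (Gm25927, Mir222 and Mir29b-1), and 6 of the 16 higher and 1 of the 2 lower against Control (Mir1943, Mir296, Mir31, Mir483, Mir5108 and Mir5112, and Mir494). The mdx libraries enter 2 of these comparisons and the Control libraries 2, so the comparisons are not independent.

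Other short genes also differed between the groups. The 465 other tested genes of at most 200 bases were mainly small nucleolar and small nuclear RNA genes. They had median differences of 0.50 in mdx against Control, 1.60 in the third group against mdx and 2.13 against Control. In the latter comparisons 145 (31.2%) and 212 (45.6%) of them were called higher, against 5.62% and 5.19% of all tested genes. Protein-coding genes had medians of 0.04, -0.04 and -0.01. The short genes thus lay above the members in all 3 comparisons, and in mdx against Control they lay on the other side of 0. The part of gene length in the members' differences was not tested. When the libraries were instead scaled to equal totals, all tested genes had a median of -0.58 in both comparisons with the third group and the members had medians of 0.61 and -0.11, with 10 members called higher and 1 lower against mdx (6.25% and 0.625%, against 3.01% and 18.4% of all tested genes) and 14 higher and 9 lower against Control (8.75% and 5.62%, against 2.86% and 16.9%). The sign of the member median against Control thus depended on the scaling, while both member medians stayed above those of all genes.

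**Figure D1:**
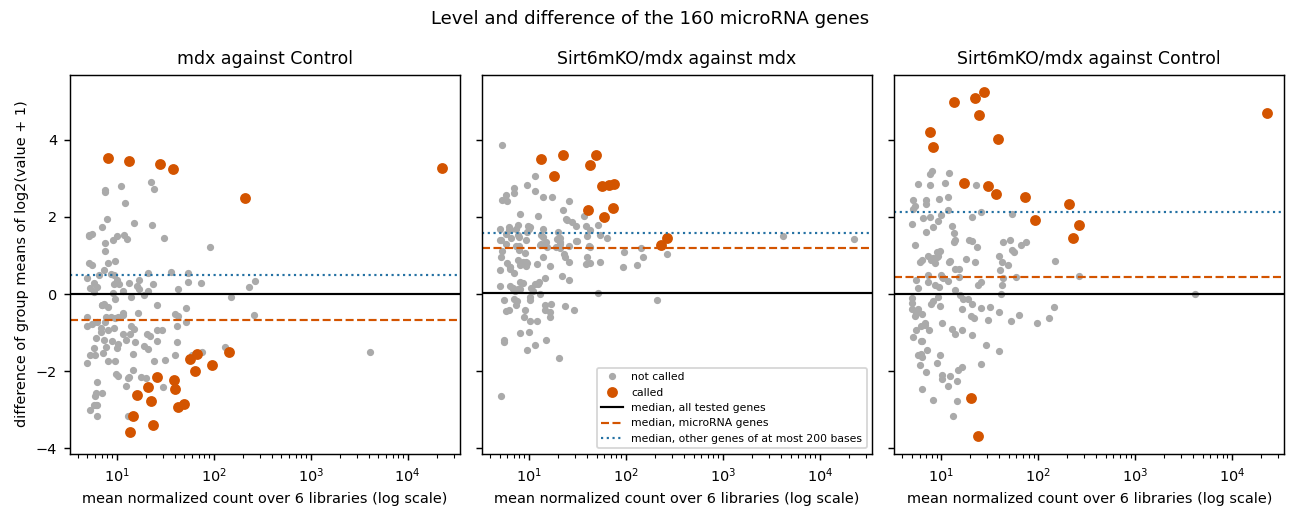
Difference of group means of log2(value + 1) (vertical axis) against the mean normalized count over 6 libraries (horizontal axis, log scale) for the 160 microRNA genes in each comparison, with called members in orange and lines for the medians of all tested genes, of the members and of other genes of at most 200 bases. Members centre below 0 in mdx against Control (median -0.66) and above 0 in Sirt6mKO/mdx against mdx (median 1.18), and in the latter no called member lies below 0.

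Of the members, 39 (24.4%) had both mdx libraries below the 4 other libraries, against 15.4% of all tested genes, and these included several clustered genes with known roles. One of them was Mir29a (chr6:31062660-31062747). The miR-29 family is known to repress collagens and other extracellular matrix proteins. Mir29a was at 83 and 29 (Control), 7 and 5 (mdx) and 110 and 63 (Sirt6mKO/mdx). The mdx values lay below all others, while Control and the third group overlapped. Mir29a fell by 2.86 on the log2 scale in mdx against Control (SE 0.61, adjusted p 0.00558) and rose by 3.60 in the third group against mdx (SE 0.61, adjusted p 0.00223). The first call was lost without Control replicate 1 (-2.11) and the second without Sirt6mKO/mdx replicate 1 (3.21). Its neighbour Mir29b-1 was at 8 and 12, 0 and 5, and 37 and 19, and rose by 3.49 in the third group against mdx (SE 0.99, adjusted p 0.0394). The difference was 2.20 without mdx replicate 1, where the call was lost, as it was without either library of the third group. The lincRNA gene Gm27019, which overlaps the end of Mir29b-1 by a few bases, was at 140 and 73, 10 and 5, and 15 and 32, and was called lower than Control in the third group as well (-2.15, adjusted p 0.0468).

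The cluster of Mir23a, Mir27a and Mir24-2 spans chr8:84208518-84208921. miR-27 is known to repress Pax3, a transcription factor of muscle progenitors. Mir23a was at 60 and 40 (Control), 11 and 19 (mdx) and 101 and 112 (Sirt6mKO/mdx), with no overlap between any of the groups. It fell by 1.69 in mdx (SE 0.49, adjusted p 0.0276) and rose by 2.79 in the third group against mdx (SE 0.49, adjusted p 0.00268). Mir27a was at 98 and 29, 16 and 21, and 193 and 99. Its difference in mdx against Control was -1.49 (adjusted p 0.0809), and it rose by 2.85 in the third group against mdx (SE 0.56, adjusted p 0.00579). For both genes the rise lost its call without either library of the third group (2.72 to 2.87 for Mir23a, 2.37 and 3.33 for Mir27a), and for Mir27a also without either mdx library. The fall of Mir23a lost its call without Control replicate 1 (-1.40), without mdx replicate 1 (-1.32) and without either library of the third group. Mir24-2 was at 2 and 2, 1 and 2, and 26 and 9 and was not called. The lincRNA Gm26532, which begins at its end, was at 184 and 42, 7 and 9, and 22 and 39.

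The related cluster on chr13:63300472-63301296 holds Mir23b, Mir27b and Mir3074-1, the last on the opposite strand to Mir24-1, and behaved differently. Mir27b was at 218 and 87 (Control), 195 and 126 (mdx) and 427 and 341 (Sirt6mKO/mdx). Control and mdx overlapped, and both values of the third group lay above them. Mir27b rose by 1.28 against mdx (SE 0.38, adjusted p 0.048) and by 1.46 against Control (adjusted p 0.0268). The first call was lost without any 1 of the mdx libraries or of the third group, with differences from 0.96 to 1.59. Without Control replicate 2 the second difference was 0.80, and only without Control replicate 1 was that call kept. Mir23b was at 113 and 123, 157 and 78, and 232 and 199, with a difference of 0.95 from mdx in the third group (adjusted p 0.102). Their host 2010111I01Rik was at 1680 and 1340, 1745 and 1305, and 2764 and 1726. Mir3074-1 was at 243 and 161, 98 and 48, and 176 and 141, and fell by 1.51 in mdx against Control (SE 0.37, adjusted p 0.0124). That call was lost without Control replicate 1 (-1.22) or mdx replicate 2 (-1.01). Reads of the 2 strands may not have been separated, so this value is uncertain.

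Mir221 and Mir222 lie together at chrX:19146294-19146971. Their microRNAs are known to repress the cell cycle inhibitor p27. Mir221 was at 57 and 49 (Control), 29 and 10 (mdx) and 142 and 117 (Sirt6mKO/mdx), and the groups did not overlap. Mir221 rose by 2.84 in the third group against mdx (SE 0.51, adjusted p 0.00321), a call lost without mdx replicate 2 (2.11) and without either library of the third group (2.70 and 2.98). It fell by 1.57 in mdx against Control (SE 0.51, adjusted p 0.047). This fall was -0.84 without mdx replicate 2, and the call was kept only without mdx replicate 1. Mir222 was at 26 and 10, 4 and 2, and 23 and 43, and rose by 3.07 in the third group against mdx (SE 0.80, adjusted p 0.0283), a call lost without any 1 of these 4 libraries (2.63 to 3.51). Both genes are X-linked, and the sex-linked markers differed between Control and mdx as given above.

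Mir1938 (chr12:40222712-40222811) lies in an intron of Ifrd1, known as an immediate early gene. It was at 60 and 45 (Control), 7 and 5 (mdx) and 84 and 58 (Sirt6mKO/mdx), with mdx below all others. Mir1938 fell by 2.93 (SE 0.55, adjusted p 0.00234), and the call was kept with any 1 library left out. It rose by 3.35 in the third group against mdx (SE 0.55, adjusted p 0.00172), which was 3.09 and not called without Sirt6mKO/mdx replicate 1. Ifrd1 itself was at 7616 and 5505, 558 and 554, and 4782 and 4918, with differences of -3.54 (adjusted p 1.16e-06) and 3.12 (adjusted p 7.87e-06). The member and its host therefore moved alike in both comparisons. Gm25927 (chr17:17830343-17830459) lies opposite Mirlet7e beside Mir99b, so its reads may belong to that microRNA. Gm25927 was at 18 and 29, 3 and 2, and 36 and 47. It fell by 2.78 (SE 0.71, adjusted p 0.0154) and rose by 3.60 against mdx (SE 0.71, adjusted p 0.00621). The fall lost its call without Control replicate 2 or either mdx library (-2.99 to -2.46), and the rise without mdx replicate 2 or either library of the third group (3.40 to 3.79). Mir99b was at 18 and 0, 2 and 2, and 22 and 26 and was not called. Its host 4930546H06Rik was at 1192 and 741, 140 and 243, and 994 and 681, with differences of -2.34 and 2.15, both called.

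**Figure D2:**
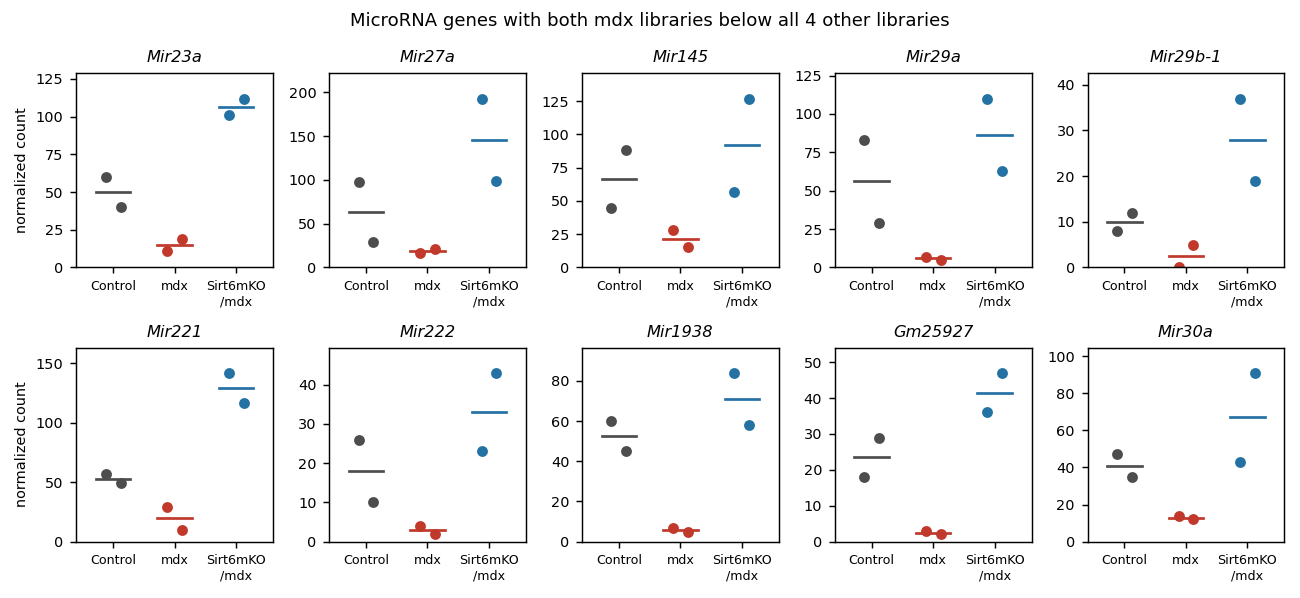
Normalized count (vertical axes, each from 0) in every library for 10 microRNA genes, with points for the 2 libraries of each group and bars for their mean. In each panel both mdx libraries lie below the 4 others, and for Mir23a, Mir27a, Mir29b-1, Mir221 and Gm25927 both libraries labelled Sirt6mKO/mdx lie above both Control libraries.

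Some further members rose in the third group against mdx. Mir30a (chr1:23272264-23272345) was at 47 and 35 (Control), 14 and 12 (mdx) and 43 and 91 (Sirt6mKO/mdx). It rose by 2.19 against mdx (SE 0.55, adjusted p 0.0237), while its difference in mdx against Control was -1.57 (adjusted p 0.0648). Mir145, known for its high level in smooth muscle, was at 45 and 88, 28 and 15, and 57 and 127, and rose by 2.0 (SE 0.54, adjusted p 0.0316). Its neighbour Mir143 was at 11 and 12, 5 and 4, and 23 and 20, with a difference of 2.04 (adjusted p 0.115). The lincRNA Mir143hg beside them was at 101 and 42, 64 and 58, and 124 and 50. Its differences were -0.10 in mdx against Control and 0.37 in the third group against mdx, and it was not called. Summed smooth muscle markers were at 1233 and 2054, 3161 and 2562, and 1442 and 1896, a sum made up mainly of Acta2. Of the 6 markers, 4 had negative differences in mdx against Control, 1 was called higher (Acta2) and 1 lower (Abcc9), and the median was -0.39. In the third group against mdx 4 of 6 were positive and none was called by limma, and 2 had an unadjusted p under 0.05. Their part in the result for Mir145 was not tested. Mir340 (chr11:50069702-50069799), in an intron of Rnf130, was at 91 and 207, 147 and 204, and 438 and 518. Control and mdx overlapped, and both values of the third group were higher than the rest. Mir340 rose by 1.45 against mdx (SE 0.35, adjusted p 0.0187) and by 1.79 against Control (adjusted p 0.00558), whereas Rnf130 was at 118 and 221, 248 and 198, and 142 and 173 and was not called. The calls of Mir30a, Mir145 and Mir340 against mdx were lost without any 1 of the mdx libraries or of the third group, with differences of 1.66 to 2.72, 1.43 to 2.57 and 1.22 to 1.69. The call of Mir340 against Control was lost without either library of the third group (1.67 and 1.91). Gm25911, one of the copies named above, was at 38 and 15, 39 and 22, and 248 and 80, and its rises of 2.23 and 2.51 are uncertain. Without Sirt6mKO/mdx replicate 1 they were 1.42 and 1.70, and neither was called. The first call was also lost without any 1 of the mdx libraries or Sirt6mKO/mdx replicate 2, and the second without Control replicate 2 (1.86) or Sirt6mKO/mdx replicate 2.

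The largest group of members lies between Dlk1 and Dio3 on chromosome 12, a region known to be imprinted. From the maternal chromosome it gives the long noncoding RNAs Meg3, Rian and Mirg and a large number of microRNAs, which are known to be expressed in MuSCs of adult mice. It held 40 members at chr12:109571990-109743496, 36 on the plus strand and 4 on the minus strand, and these were grouped after their values had been seen. The summed members were at 1351 and 1050 (Control), 320 and 406 (mdx) and 455 and 1143 (Sirt6mKO/mdx) normalized counts. Control and mdx did not overlap, and the libraries of the third group stood far apart from each other, one near mdx and one at the Control level.

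In mdx against Control, 39 of the 40 had a negative difference, with a median of -1.57 against -0.09 for the 120 other members. Both mdx libraries lay below both Control libraries for 31 of the 40 (77.5%, against 28.3% of all tested genes). By limma, 8 were called lower (20%, against 7.34%), and they lie within chr12:109712508-109726901. Mir758 had the highest level, at 171 and 134 (Control), 42 and 41 (mdx) and 59 and 134 (Sirt6mKO/mdx), and fell by 1.84 (SE 0.42, adjusted p 0.00746). Mir654 was at 100 and 99, 18 and 32, and 57 and 80, and fell by 2.0 (SE 0.45, adjusted p 0.00691). Mir300 was at 104 and 53, 10 and 16, and 17 and 39, and fell by 2.46 (SE 0.61, adjusted p 0.0126). Mir1193 was at 54 and 51, 10 and 12, and 12 and 17, and fell by 2.16 (adjusted p 0.0266). In these 4 members the mdx values lay below both Control values, and most values of the third group lay in between.

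Mir494 was at 85 and 40 (Control), 3 and 7 (mdx) and 2 and 6 (Sirt6mKO/mdx), and fell by 3.39 in mdx (SE 0.85, adjusted p 0.0132). It is the member of the region that was also called lower in the third group against Control, by -3.70 (adjusted p 0.0144). Mir495 was at 60 and 15, 3 and 2, and 6 and 2, and fell by 3.17 (SE 0.98, adjusted p 0.038). Mir381 was at 39 and 30, 10 and 2, and 8 and 9, and fell by 2.62 (SE 0.83, adjusted p 0.0422). Mir323 was at 36 and 36, 5 and 7, and 8 and 34, and fell by 2.42 (SE 0.77, adjusted p 0.0423). For Mir494, Mir495 and Mir381 the third group thus stayed at the mdx level. In Mir323 it was split between a library near mdx and a library near Control.

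These calls rest on few libraries. Mir654 lost its call only without mdx replicate 1 (-1.61), Mir300 and Mir494 without Control replicate 1 (-1.98 and -2.86) or mdx replicate 1 (-2.15 and -2.89), and Mir758 without Control replicate 1 (-1.67) or either mdx library. The call of Mir1193 was lost without any 1 library of Control or mdx (-2.28 to -2.04), and that of Mir323 without any 1 of them or Sirt6mKO/mdx replicate 2 (-2.62 to -2.21). Mir495 kept its call only without Control replicate 2, with -2.21 without Control replicate 1, and Mir381 lost it without any 1 of the 6 libraries, with -1.68 without mdx replicate 2. The difference of Mir494 between the third group and Control was not called without any 1 library of either (-4.31 to -3.08).

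In the third group against mdx the 40 members had a median difference of 0.82, and 28 were positive. None was called by limma, and 6 (15%) were higher at an unadjusted p under 0.05, near the 14.1% of all tested genes. Against Control their median was -0.80. With libraries scaled to equal totals these medians were 0.27 and -1.35, against -0.58 for all tested genes in both comparisons. The noncoding RNAs of the region followed a like course at much higher levels. Mirg, whose transcript holds several of the members, was at 2385 and 1714 (Control), 458 and 607 (mdx) and 594 and 1292 (Sirt6mKO/mdx), and fell by 1.94 in mdx (adjusted p 0.0011). Rian was at 8000 and 5291, 1868 and 3597, and 2558 and 6047, and fell by 1.33 (adjusted p 0.044). Meg3 was at 4020 and 2910, 868 and 2546, and 2523 and 3863, with a difference of -1.20 (adjusted p 0.059). In the third group replicate 2 was the higher library for all 3, as it was for the sum of the members. Dlk1, expressed from the paternal chromosome, was at 41 and 84, 18 and 26, and 11 and 11.

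The other members of the region were not called in mdx against Control. On the proximal side, Mir673, Mir493, Mir337, Mir540, Mir665, Mir3070a and Mir3070b lay between 6 and 32 in Control and between 0 and 9 in mdx, and Mir3070a and Mir3070b are near-identical. Mir341, Mir1188 and Mir882 followed, with differences of -1.75, -0.13 and -0.73 in mdx against Control. Within the main cluster of 30 members, Mir379, Mir411, Mir1197, Mir329, Mir679, Mir666, Mir543, Mir667, Mir376b, Mir487b, Mir539, AC121784.1, Mir382, Mir453, Mir154, Mir541 and Mir369 had differences between -2.19 and -0.58. Mir496, at 6 and 30 in Control and 13 and 21 in mdx, had the only positive difference, 0.25. The 4 members on the minus strand, Gm25400, Gm25750, Gm25252 and Gm24321, lay between -1.71 and -0.60, and reads of the opposite strand may be counted in them.

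**Figure D3:**
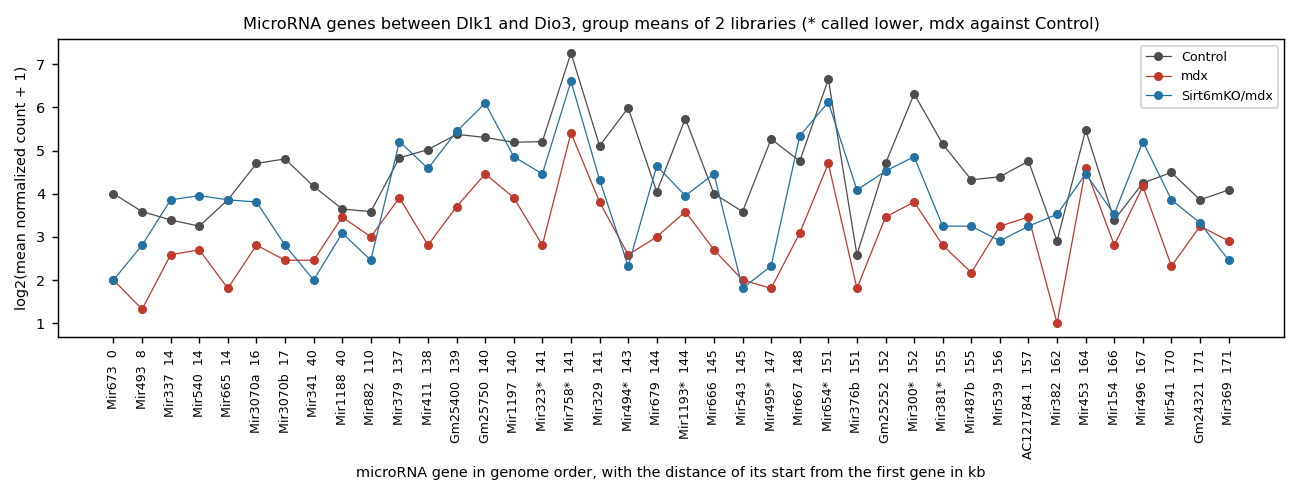
Group mean of 2 libraries, as log2(mean normalized count + 1), for the 40 microRNA genes between Dlk1 and Dio3 in genome order, with the distance of each start from the first gene in kb on the horizontal axis and asterisks at the 8 members called lower in mdx. The mdx line runs below the Control line for all 40 members, by little at Mir496 (means of 17 and 18), and the Sirt6mKO/mdx line lies between both at Mir758 and Mir654 and near mdx at Mir494 and Mir495.

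Outside this region, 2 further members were called lower in mdx against Control. Mir345 (chr12:108836973-108837068) was at 79 and 41 (Control), 16 and 8 (mdx) and 26 and 65 (Sirt6mKO/mdx), and fell by 2.23 (SE 0.62, adjusted p 0.0238). Slc25a47, whose annotated transcripts reach over it, was at 109 and 98, 12 and 14, and 53 and 19, and fell by 2.90 (adjusted p 0.0027). The call of Mir345 was lost without Control replicate 1 (-1.76) and without either mdx library (-2.69 and -1.77). Mir302b, of a family known from pluripotent cells, was at 8 and 46, 0 and 2, and 3 and 24. Its fall of 3.57 (SE 1.16, adjusted p 0.0477) rested on about 3 reads in mdx, a ratio of 31.1 with a 95% counting interval of 10.2 to 155, and on Control replicate 2, without which the difference was -2.38. The call was kept only without Control replicate 1. Mir295, whose mature strand has the same seed, was at 79 in Control replicate 2 and at 0 in the 5 other libraries.

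Among members with higher values in dystrophic mice, Mir6236 had the highest level, with the values given above. Both mdx libraries lay above both Control libraries, and both libraries of the third group above both mdx libraries. Mir6236 rose by 3.27 in mdx (SE 0.60, adjusted p 0.00183) and by 4.70 in the third group against Control (adjusted p 0.000195), and both calls were kept with any 1 library left out, with differences of 2.38 to 4.15 and 3.81 to 5.59. The difference between the third group and mdx was 1.43 (adjusted p 0.148). Beside Mir6236 stand the values of 3 further genes with high counts, chosen after their values were seen. AY036118, annotated as a pseudogene, was at 557 and 23, 1990 and 2910, and 9659 and 6034, with no overlap between Control and mdx. It was called higher in mdx than in Control, by 4.38 (adjusted p 0.00336 by limma). For n-R5-8s1, annotated as ribosomal RNA, at 8778 and 2192, 13540 and 6810, and 25689 and 26694, and for Gm26917, at 18604 and 9101, 17197 and 36004, and 81660 and 70227, Control and mdx overlapped and the difference did not pass the test (adjusted p 0.195 and 0.38). All 3 were called higher in the third group than in Control. Their part in the result was not tested. Mir6239 (chr14:117953743-117953847) was at 68 and 39, 401 and 218, and 254 and 276. It rose by 2.50 in mdx (SE 0.35, adjusted p 0.00024), which was kept with any 1 library left out, and by 2.34 in the third group against Control (adjusted p 0.000786), which was 2.28 and not called without Sirt6mKO/mdx replicate 2.

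Mir31 was among the members at 0 in both Control libraries. miR-31 is known to hold back translation of Myf5 in quiescent MuSCs. Mir31 (chr4:88910557-88910662) was at 0 and 0 (Control), 11 and 10 (mdx) and 19 and 9 (Sirt6mKO/mdx). It entered the test only through the libraries in which it is high, as did Mir5112, Mir5108, Mir483, Mir296 and Mir1943. With a floor of 3 reads over both Control libraries, it was at least 6.96-fold higher in mdx (adjusted p 0.0289) and at least 9.38-fold higher in the third group (adjusted p 0.0311). These limits depend on the depth of the Control libraries. They were 4.61 and 6.21 without Control replicate 1 and 2.35 and 3.17 without Control replicate 2, and the second was 6.08 without Sirt6mKO/mdx replicate 1. The first call was lost without either mdx library or Control replicate 1, and the second was kept only without Control replicate 1. Mir5112 was at 0 and 0, 9 and 11, and 31 and 30, at least 6.50-fold higher in mdx (adjusted p 0.0195) and at least 19.9-fold in the third group (adjusted p 0.00378), limits of 4.30 and 13.2 without Control replicate 1 and of 2.20 and 6.71 without Control replicate 2. Mir5108 (chr10:61774737-61774821) was at 2 and 0, 18 and 16, and 57 and 74. With 1 read in Control its ratios were 33.4 in mdx (95% counting interval 5.72 to 1347, adjusted p 0.0101) and 127 in the third group (22.2 to 5099, adjusted p 0.000821). The calls of Mir5112 and Mir5108 in mdx were lost without either mdx library. In the third group, that of Mir5112 was lost without either library of the group, and that of Mir5108 without replicate 2 (5.07). These intervals and floors cover counting error only.

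Mir532 (chrX:7248402-7248497) lies with Mir500, Mir501, Mir362 and Mir188 in introns of Clcn5. It was at 0 and 15 (Control), 52 and 26 (mdx) and 43 and 95 (Sirt6mKO/mdx), and rose by 3.24 (SE 0.99, adjusted p 0.0358) and by 4.02 against Control (adjusted p 0.0203). Control replicate 1, at 0, set the size: leaving it out gave 1.24 and 2.02, and leaving out Control replicate 2 gave 5.24 and 6.02. Both calls were kept only without Control replicate 2. Mir532 is X-linked, and the sex-linked markers separated Control from both other groups. Clcn5 was at 1474 and 2185, 3178 and 3627, and 1467 and 1342, lower in the third group than in mdx where Mir532 was not. Of the neighbours, Mir501 was at 44 and 44, 45 and 19, and 48 and 56, and Mir500 at 18 and 27, 16 and 15, and 8 and 15. Mir362 was at 9 and 12, 21 and 3, and 29 and 82, and Mir188 at 6 and 6, 47 and 12, and 11 and 9. None of these 4 was called.

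Among the remaining members called in the third group against Control, 3 were near 0 in Control. Mir483 (chr7:142654924-142654996), in an intron of the growth factor gene Igf2, was at 0 and 3 (Control), 10 and 15 (mdx) and 26 and 93 (Sirt6mKO/mdx), and rose by 4.65 (SE 0.93, adjusted p 0.00631). Without Sirt6mKO/mdx replicate 2 this was 3.75 and not called. Igf2 was at 621 and 686, 7301 and 4419, and 2637 and 3679, and thus was highest in mdx, whereas Mir483 was highest in the third group. Mir296 was at 0 and 0, 1 and 27, and 11 and 95, at least 32.0-fold higher than in Control (adjusted p 0.0251). This limit was 7.07 without Sirt6mKO/mdx replicate 2, 62.0 without replicate 1 of that group, 21.2 without Control replicate 1 and 10.8 without Control replicate 2. Mir1943 was at 0 and 0, 7 and 4, and 15 and 20, at least 11.6-fold higher (adjusted p 0.0234), a limit of 7.67 without Control replicate 1 and of 3.92 without Control replicate 2. The calls of both were lost without either library of the third group, that of Mir296 also without either Control library and that of Mir1943 also without Control replicate 2 or mdx replicate 1.

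Mir423 was at 11 and 12 (Control), 16 and 19 (mdx) and 48 and 114 (Sirt6mKO/mdx), and rose by 2.59 against Control (adjusted p 0.0169). Mir149 was at 5 and 8, 20 and 18, and 23 and 110, and rose by 2.81 (adjusted p 0.0312), or by 1.71 without Sirt6mKO/mdx replicate 2. Mir5099 was at 60 and 23, 64 and 120, and 136 and 153, and rose by 1.92 (adjusted p 0.0188), or by 1.25 without Control replicate 2. Gm24589 was at 9 and 2, 4 and 9, and 36 and 43, and rose by 2.88 (adjusted p 0.0477). The calls of Mir423 (1.97 to 3.20) and Mir5099 were lost without either library of the third group or Control replicate 2. Those of Gm24589 and Mir149 were kept in 1 of the 6 fits that left out a library each, without Control replicate 1 and without Sirt6mKO/mdx replicate 1. Apart from Mir494, Mirlet7a-2 (chr9:41536716-41536811) was the member called lower, at 33 and 42, 26 and 12, and 6 and 4, and fell by 2.69 (SE 0.71, adjusted p 0.0296). Its call was kept only without mdx replicate 2 (-2.93 to -2.45 over all fits). Its neighbour Mir100 was at 18 and 15, 23 and 16, and 9 and 17.

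**Figure D4:**
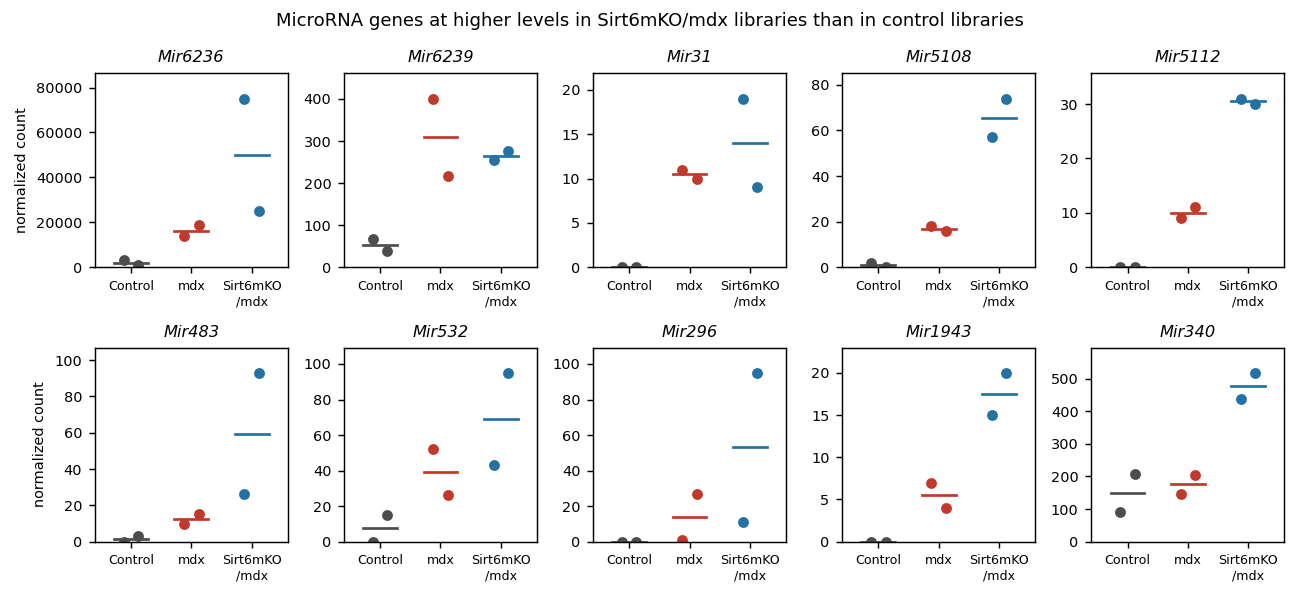
Normalized count (vertical axes, each from 0) in every library for 10 microRNA genes called higher in the Sirt6mKO/mdx libraries than in Control, with points for the 2 libraries of each group and bars for their mean. In all panels both libraries labelled Sirt6mKO/mdx lie above both Control libraries, and Mir31, Mir5112, Mir296 and Mir1943 are at 0 in both Control libraries.

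Muscle microRNA genes had low values in this table, from which reads matching several places had been left out. Of 12 symbols fixed as muscle microRNA genes, 7 were found in the table and 1, Mir206, reached a mean of 5. Mir206 (chr1:20679010-20679082) was at 5 and 12 (Control), 10 and 9 (mdx) and 5 and 22 (Sirt6mKO/mdx), with all groups overlapping and differences of 0.25, 0.16 and 0.41. Mir1a-1 was at 0 to 2, Mir1b at 3 to 6, Mir133a-1 at 0 to 5, Mir133a-2 at 0 to 8 and Mir133b at 2 to 7, and Mir208b was at 0 in all libraries. A gene named Mir486, in an intron of Ank1, was a member at 8 and 5, 10 and 6, and 14 and 13. The other 5 symbols were not analysed here. The genes under a mean of 5 were not tested.

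Of 24 symbols fixed as microRNAs of MuSC quiescence and activation, 10 were members. In mdx against Control, 1 was called higher (Mir31) and 1 lower (Mir29a), with a median of 0.16. This is 10% each way, against 6.89% and 7.34% of all tested genes. In the third group against mdx, 4 were called higher (40%, against 5.62%), Mir27a, Mir27b, Mir29a and Mir29b-1, with a median of 1.37. Against Control 2 were called higher (20%, against 5.19%), Mir27b and Mir31, with a median of 1.09. The list was chosen with earlier results of these data known. Mir29b-1 and Mir31 reached the mean of 5 only through groups in which they were high. Mir708, in an intron of Tenm4, was at 100 and 15 (Control), 7 and 6 (mdx) and 15 and 39 (Sirt6mKO/mdx), with a difference of -2.43 in mdx (adjusted p 0.059). Mir489, which lies with Mir653 in an intron of the quiescence marker gene Calcr, was at 2 and 5, 16 and 2, and 8 and 0, and Mir653 at 6 and 6, 17 and 0, and 2 and 7. Mir195 was at 9 and 3, 20 and 15, and 5 and 20, its cluster neighbour Mir497 at 6 and 35, 14 and 19, and 12 and 15, and Mir503 at 3 and 2, 7 and 2, and 12 and 13. Neither these nor Mir708 passed the test.

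The let-7 family, known to promote differentiation in many tissues, gave 8 members. Their median differences were -0.32 in mdx against Control, 1.13 in the third group against mdx and 1.07 against Control, and Mirlet7a-2 alone was called, lower in the third group than in Control (12.5% of the list, against 2.68% of all tested genes). Mirlet7b was at 115 and 450 (Control), 141 and 170 (mdx) and 201 and 501 (Sirt6mKO/mdx), with Control overlapping both other groups and the third group above mdx. Its neighbour Mirlet7c-2 was at 0 and 5, 15 and 9, and 14 and 30. Mirlet7c-1 was at 33 and 39, 54 and 37, and 91 and 71, next to Mir99a at 12 and 12, 17 and 8, and 39 and 28. Mirlet7a-1 was at 68 and 15, 32 and 19, and 84 and 91, next to Gm24111 at 0 and 3, 4 and 4, and 11 and 24. Mirlet7f-2 was at 48 and 14, 28 and 29, and 54 and 86, next to Mir98 at 15 and 8, 5 and 3, and 14 and 17. Mirlet7g was at 3 and 7, 1 and 10, and 6 and 17. In 5 of the 8 (62.5%, against 51.25% of all members and 28.8% of all tested genes), both libraries of the third group lay above both mdx libraries, and Mirlet7a-2 was the 1 with the opposite order.

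The other lists were small and were chosen with earlier results of these data known. Of 21 symbols of proliferation-linked clusters, 4 were members, Mir221, Mir222, Mir106b and Mir15b, and 1 was called lower in mdx (25%, against 7.34% of all tested genes) and 2 higher in the third group against mdx (50%, against 5.62%), as given above. Mir222 reached the mean of 5 only through groups in which it was high. Mir106b was at 0 and 3, 3 and 2, and 3 and 20, and Mir15b at 0 and 19, 5 and 9, and 5 and 11. The host gene of the miR-17 to miR-92 cluster, Mir17hg, was at 124 and 107 (Control), 24 and 19 (mdx) and 139 and 134 (Sirt6mKO/mdx), with differences of -2.38 and 2.62, both called. Of 25 symbols that mark other cell types, 4 were members, Mir143, Mir145, Mir150 and Mir451, with a median of -1.38 in mdx against Control, and Mir145 was the 1 called, higher in the third group than in mdx (25%, against 5.62% of all tested genes). Mir150, known from lymphocytes, was at 9 and 15, 0 and 2, and 2 and 9, and the erythroid Mir451 at 2 and 8, 3 and 2, and 0 and 15. The members of HOX clusters were Mir196a-2, at 0 and 7, 8 and 9, and 14 and 4, and Mir615, at 0 and 1, 5 and 13, and 3 and 24, and neither was called. The remaining genome clusters were Mir302b with Mir302d, the latter at 3 and 26, 1 and 0, and 3 and 2, and Gm24083 with Mir425, at 2 and 12, 7 and 4, and 6 and 24, and at 6 and 10, 6 and 0, and 17 and 19. In all, 76 members lay in 19 clusters with starts at most 10000 bases apart.

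Of the 160 members, 20 lay in an exon and 62 in an intron of a gene on the same strand, 20 had a gene only on the opposite strand and 58 had none. Other microRNA genes were not counted here. For 71 members, a host gene of the table was tested in the same fit. The member and its host had a difference of the same sign for 45 of 71 in mdx against Control, 31 of 71 in the third group against mdx and 42 of 71 against Control. Several members share a host, so these pairs are not independent. Median differences of the members with a host were -0.28, 1.19 and 0.50, and those of the hosts -0.08, -0.09 and -0.19. Of called members with a host, 4, 3 and 9 in the 3 comparisons, the host was called in the same direction for 2, 1 and 1, namely Ifrd1 of Mir1938, Slc25a47 of Mir345 and Igf2 of Mir483. The 58 members without a gene of another type on either strand include 31 of the 40 of the Dlk1-Dio3 region. They had a median of -1.30 in mdx against Control. The median was 0.09 for the 20 with a gene only on the opposite strand, and -0.33 and -0.11 for those in exons and introns.

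**Figure D5:**
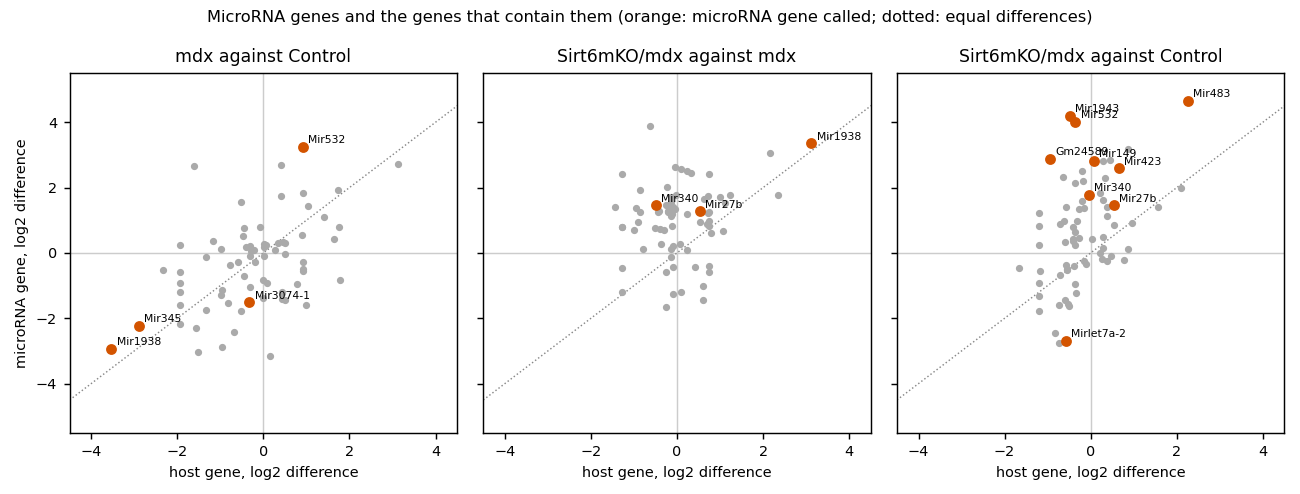
Difference of the microRNA gene (vertical axis) against that of the gene that contains it (horizontal axis), both as log2 differences of group means, for 71 members in each comparison, with called members in orange and equal differences as a dotted line. Mir1938 lies near the dotted line in both comparisons with mdx, whereas most members lie above 0 in Sirt6mKO/mdx against mdx while their hosts spread about 0.

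Genes of microRNA biogenesis and function were compared for the same libraries. Of 35 fixed symbols, all were in the table and 33 were tested. Ago2, the Argonaute protein that slices targets, was at 1995 and 2020 (Control), 449 and 754 (mdx) and 891 and 810 (Sirt6mKO/mdx). It fell by 1.78 in mdx (adjusted p 0.000436) and by 1.24 in the third group against Control (adjusted p 0.0113). Ago3 was lower in the third group than in Control as well (-1.33, adjusted p 0.0053). Tsn, a subunit of the nuclease that clears passenger strands, rose by 1.18 in mdx and fell by 1.31 in the third group against mdx, with adjusted p-values by limma of 0.00651 and 0.00643 and values of 195 and 264, 489 and 545, and 207 and 209. Prkra, a partner of Dicer, rose by 1.14 in mdx (adjusted p 0.0357). Tnrc6c, a scaffold of the silencing complex, was at 489 and 474, 453 and 1250, and 2096 and 1631, and rose in the third group by 1.30 against mdx (adjusted p 0.0365) and 1.94 against Control (adjusted p 0.00371). Ddx6, a helicase of translational repression, fell by 1.01 in the third group against mdx (adjusted p 0.0228). Dicer1 was at 1101 and 1225, 635 and 724, and 717 and 497 and Drosha at 287 and 372, 370 and 390, and 246 and 246, and neither was called. Dicer1 passed the adjusted p but not the size of difference, with -0.78 in mdx (adjusted p 0.0492) and -0.96 in the third group against Control (adjusted p 0.0296). The medians of the list were -0.07, -0.33 and -0.32. Calls in mdx against Control made up 6.06% of the list upward and 3.03% downward, against 6.89% and 7.34% of all genes. For the third group these shares were 3.03% and 6.06%, both against mdx and against Control. Among all genes they were 5.62% and 2.54% against mdx, and 5.19% and 2.68% against Control. How these calls hold with 1 library left out is not given here. The part of these genes in the members' differences was not tested.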

How the data were processed

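Sorted MuSCs of 6 libraries were studied. The authors made libraries of rRNA-depleted total RNA for Ion Torrent sequencing, aligned reads with STAR 2.4.2a (per the submitters' processing notes) to GRCm38, counted reads per gene with featureCounts 1.4.5-p1, leaving out reads that fell in several genes or places, and normalized the counts with DESeq2 1.6.0. Whether strand was used was not given in the sources used here. The values, a score in unit terms, were deposited by the authors as normalized counts rounded to whole numbers, and the read totals given were recovered approximately from the steps between values. On simulated data this recovery can fail for size factors near 1, but in each library it gave the same factor over different ranges of values.

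From these values, log2(value + 1) was fitted with limma-trend (limma 3.58.1, R 4.3.3) over all 6 libraries and 3 groups, without a replicate block, for the 15915 genes whose mean reached 5, and p-values were adjusted by the Benjamini-Hochberg method over all of them. Calls needed an adjusted p of at most 0.05 and a difference of at least 1 on the log2 scale. A host gene contained the member on the same strand in the table or in the GENCODE annotation. Copies were sought with blastn 2.17.0, and summaries were made with Python 3.11.15. Counting intervals are at 95%, and a floor is 3 reads.

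Named are the members called in a comparison (the 8 largest and 8 smallest differences where more than 15 were called), the 8 highest, muscle and quiescence microRNAs, and members of clusters with starts within 10000 bases. Mir345, Mir149, Gm24589 and all genes that are not members were named after their values were seen. Members and lists were chosen with earlier results of these data known. Alternatives were another pseudocount, minimum mean, scaling, prior variance, set of samples, a replicate block and leaving out each library.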

Additional observations from a re-analysis of the deposited data

How the results depend on the processing

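No call changed direction under any alternative. Of 53 calls of single members, equal upper quartiles kept 51, a robust prior 51, equal totals 48, a pseudocount of 5 kept 48 and one of 0.1 kept 43, and fits of only the 2 groups compared kept 37. Calls lost under equal totals were those of Mir27b, Mir145 and Mir340 in Sirt6mKO/mdx against mdx and of Mir27b and Gm24589 against Control. One prior variance for all genes kept 10. With that prior, 4 members were higher and 3 lower in mdx against Control (2.5% and 1.88%, against 1.14% and 2.26% of all genes). It gave 0 higher in Sirt6mKO/mdx against mdx, and 4 higher and 0 lower in Sirt6mKO/mdx against Control (2.5% and 0%, against 0.408% and 0.138%). Not all of these calls were among the 53. Without a minimum mean limma called 0 members in each comparison, with 38, 32 and 34 at an unadjusted p under 0.05. That setting called 0.564% of all genes higher and 1.22% lower in mdx, 0.0837% higher and 0 lower in Sirt6mKO/mdx against mdx, and 0.0044% each way against Control, and one prior variance called 0 of all genes in Sirt6mKO/mdx against mdx. Fitting only the 2 groups compared gave 2 higher and 11 lower in mdx (1.25% and 6.88%, against 5.22% and 5.91% of all genes), 22 higher and 0 lower in Sirt6mKO/mdx against mdx (13.8% and 0%, against 6.17% and 2.99%), and 10 higher and 1 lower against Control (6.25% and 0.625%, against 3.4% and 2.07%). Equal totals gave 1 lower in Sirt6mKO/mdx against mdx and 9 lower against Control. With the Dlk1-Dio3 members left out, an alternative chosen after seeing the data, 8 of 120 were lower in mdx (6.67%, near the 7.34% of all genes) and 1 in Sirt6mKO/mdx against Control (0.833%, against 2.68%).

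With 1 library left out, between 2 and 9 members were higher and 4 to 16 lower in mdx, 0 to 20 higher in Sirt6mKO/mdx against mdx, and 1 to 18 higher and 0 to 2 lower against Control. The shares of all genes moved as well, from 1.77% to 7.49% higher and 4.13% to 7.31% lower in mdx, 1.14% to 6.26% higher in Sirt6mKO/mdx against mdx, and 1.05% to 5.36% higher and 0.289% to 2.9% lower against Control, while those of the members ran from 1.25% to 5.62%, 2.5% to 10%, 0% to 12.5%, 0.625% to 11.2% and 0% to 1.25%. The fewest came without mdx replicate 1, Sirt6mKO/mdx replicate 1 and Sirt6mKO/mdx replicate 2, and a group left with 1 library is assumed to vary like the others. With a replicate block all 53 calls were kept and 7 members were higher and 22 lower in mdx (4.38% and 13.8%, against 7.34% and 7.84% of all genes), 18 higher in Sirt6mKO/mdx against mdx (11.2%, against 6.6%), and 19 higher and 2 lower against Control (11.9% and 1.25%, against 5.87% and 2.95%). Deviations of same-numbered libraries were only weakly correlated across genes (r = -0.128, 0.119 and 0.009). With 2 libraries per group, these values cannot decide whether the numbers pair them. Members with a few reads per library limit what these data can show.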
